A study of Mus musculus with 16 samples.

Results

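Phgdh and 9 other genes of serine synthesis, serine transport and the folate cycle were followed through the terminal ileum of 16 mice, as 10 of the 24940 genes in the count table. The list was chosen by function around Phgdh, and Phgdh had itself been selected on its female genotype difference in these libraries. For these genes the female difference and every value that includes the female libraries are therefore a description without a test, and the male difference is where they were tested.

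The study used C57BL/6 mice whose Bcl6 alleles, which encode the repressor of transcription BCL6, were flanked by loxP sites. Mice with the floxed alleles alone (Bcl6 fl/fl) are called WT here. Bcl6 LKO mice had the same floxed alleles together with Alb-cre, a Cre recombinase driven by the albumin promoter that acts in hepatocytes, so the deletion lies in liver and the ileum measured here keeps its Bcl6 gene. WT and LKO mice of each sex gave 4 groups of 4 animals, with no age given in the labels and no treatment named, and the question was how the ileum differed when the liver lacked BCL6.

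Serine is made from the glycolytic intermediate 3-phosphoglycerate. PHGDH, the product of Phgdh, oxidises it in the committed step, PSAT1 transfers an amino group to the product, and PSPH removes the phosphate. Serine then gives a carbon unit to tetrahydrofolate and becomes glycine, by SHMT1 in the cytosol or SHMT2 in mitochondria. In mitochondria MTHFD2 oxidises the folate-bound unit, MTHFD1L releases it as formate, and ALDH1L2 can oxidise it to carbon dioxide, while the trifunctional MTHFD1 takes formate up again in the cytosol for purine and thymidylate synthesis. SLC1A4 carries serine and other small neutral amino acids across the plasma membrane. Dividing cells such as those of intestinal crypts draw on this pathway, and the transcription factor ATF4 is known to induce Phgdh, Psat1, Shmt2 and Mthfd2 when amino acids are short.

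Female LKO replicate 1 was the deepest library, with a total of 60.3 M gene counts, and the other 15 held 15.7 to 20.5 M each. Levels are given as CPM, each count relative to its library's total after scaling by trimmed mean of M-values, and levels of different genes are compared only per kilobase of exon (RPKM). Bcl6 itself lay between 14.1 and 17.8 CPM in male WT, 17.3 and 21.8 in male LKO, 9.25 and 15.1 in female WT and 15.2 and 26.1 in female LKO, which does not check a deletion made in hepatocytes. Xist and Ddx3y matched the labelled sex in all 16 libraries. The 14 ileal enterocyte markers were present in every library, with a summed level of 24711 to 31070 CPM. Markers of B-cell follicles, 16 genes, summed to over 100 CPM in 4 libraries, namely male WT replicate 2, female WT replicate 3, female LKO replicate 2 and female LKO replicate 3, at 190, 123, 321 and 599 CPM.

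The promoters of the 4 members that stood apart in females are shown with that of Asns, asparagine synthetase, as a known ATF4 target. Each is the 250 bases before the annotated start in RefSeq, on GRCm38.p6, the assembly of mm10, read 5′ to 3′ on the gene's strand. The windows are chr3:98339970-98340219 for Phgdh, chr19:15925060-15925309 for the first of the Psat1 windows, chr6:83317605-83317854 for Mthfd2, chr10:127522445-127522694 for Shmt2 and chr6:7693210-7693459 for Asns, all on the minus strand. Capitals mark CCAAT on either strand in the first 3, and TGATGNAA, the core of the element that ATF4 binds with C/EBP partners, in Asns. Shmt2 holds no match to either.
Phgdh: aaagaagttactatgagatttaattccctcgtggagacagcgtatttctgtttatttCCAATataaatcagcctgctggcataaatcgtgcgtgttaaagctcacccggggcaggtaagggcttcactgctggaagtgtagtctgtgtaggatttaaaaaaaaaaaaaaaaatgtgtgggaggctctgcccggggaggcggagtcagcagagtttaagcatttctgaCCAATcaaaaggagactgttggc
Psat1: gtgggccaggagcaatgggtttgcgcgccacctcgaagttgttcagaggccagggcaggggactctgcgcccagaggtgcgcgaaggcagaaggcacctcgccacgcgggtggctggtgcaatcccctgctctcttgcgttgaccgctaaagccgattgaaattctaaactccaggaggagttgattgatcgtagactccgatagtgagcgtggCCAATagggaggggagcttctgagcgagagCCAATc
Mthfd2: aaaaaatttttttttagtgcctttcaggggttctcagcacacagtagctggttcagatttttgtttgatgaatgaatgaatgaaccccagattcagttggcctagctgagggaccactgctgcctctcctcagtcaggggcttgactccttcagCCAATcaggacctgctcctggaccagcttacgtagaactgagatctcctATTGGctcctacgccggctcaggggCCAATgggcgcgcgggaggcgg
Shmt2: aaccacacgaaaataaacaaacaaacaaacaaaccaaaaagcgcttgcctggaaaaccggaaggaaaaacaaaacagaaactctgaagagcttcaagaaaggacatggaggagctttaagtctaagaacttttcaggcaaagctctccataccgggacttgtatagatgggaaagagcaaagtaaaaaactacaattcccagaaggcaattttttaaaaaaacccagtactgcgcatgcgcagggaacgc
Asns: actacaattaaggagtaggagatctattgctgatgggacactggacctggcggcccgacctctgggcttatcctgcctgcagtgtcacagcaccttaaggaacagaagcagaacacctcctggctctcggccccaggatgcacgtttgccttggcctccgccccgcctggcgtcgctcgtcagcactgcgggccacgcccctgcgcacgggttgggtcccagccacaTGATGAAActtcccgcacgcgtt

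RefSeq promoter windows, running from 250 bases before to 50 bases after the start, were found for 9 of the 10 members, with 2 windows for Psat1. Only the 250 bases before the start were searched, in the members and in all genes alike. Aldh1l2 was not matched. CCAAT, searched on both strands, lay in 7 of the 9, against 37.5% of 27025 genes with a window. In Phgdh it began at positions -193 and -23, where -1 is the base before the start, and in Mthfd2 at -96, -47 and -22. TGATGNAA lay in 0 of the 9 members and in 3.91% of all genes. It lay in 8 of the 24 matched genes of a list of ATF4 and its amino acid response targets, among them Asns at -23. The GC box GGGCGG lay in 6 of the 9 members and in 35.4% of all genes. The E-box CACGTG and the cyclic AMP element TGACGTCA lay in none of the 9, against 6.86% and 1.77% of all genes. In the 24 matched genes of the ATF4 list CCAAT lay in 13, GGGCGG in 15, CACGTG in 4 and TGACGTCA in 1. These are matches of letters in 1 window per start, and none of them was tested as a binding site.

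Per kilobase of exon the pathway fell into tiers. Shmt2, Shmt1 and Mthfd1, which load, interconvert and pass on the folate-bound unit, averaged 24.3, 22.3 and 21.5 RPKM over the 16 libraries, and their ranges overlapped. Psat1 at 11.1, Mthfd2 at 9.66, Slc1a4 at 7.28, Psph at 5.45, Phgdh at 5.42 and Mthfd1l at 3.69 RPKM followed, each overlapping its neighbour in that order. Aldh1l2 stood lowest at 0.558 RPKM, below Mthfd1l in 16 of 16 libraries. Only the steps from Mthfd1 to Psat1 and from Mthfd1l to Aldh1l2 had no overlap of ranges among neighbours. The committed enzyme of serine synthesis was thus among the lower transcripts of its pathway, and Psph was above Phgdh in 8 of 16 libraries.

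**Figure D1:**
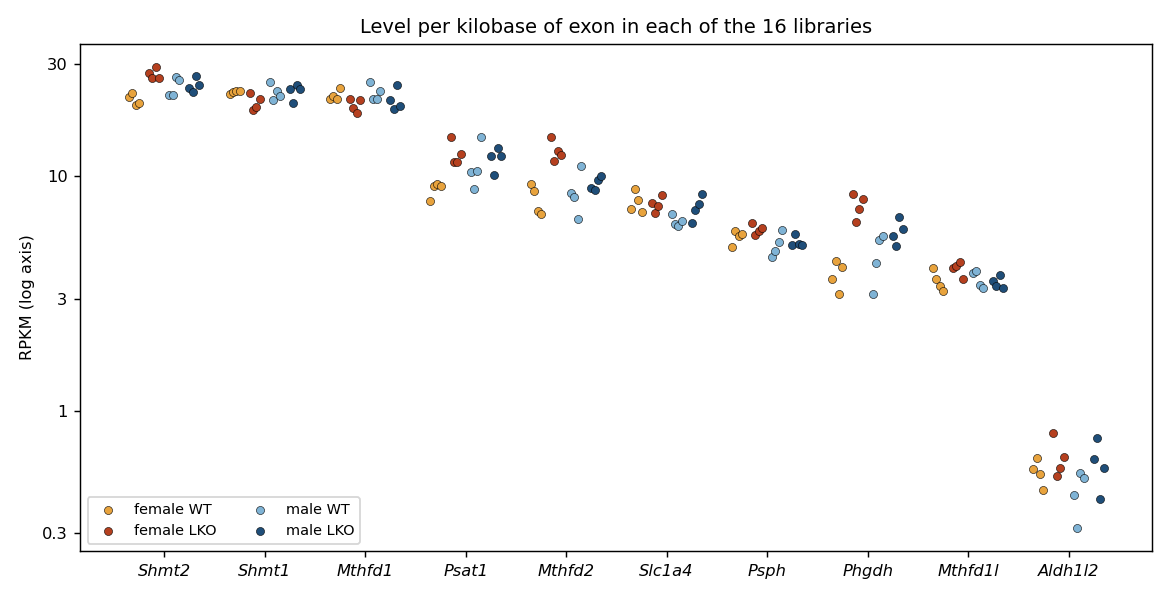
Level of each gene in RPKM on a log axis, 1 point per library, coloured by group and ordered by the mean over 16 libraries. Shmt2, Shmt1 and Mthfd1 lie highest (lowest 18.6, highest 29.1) and Aldh1l2 below 1 RPKM in every library.

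Phgdh, on chromosome 3 at 98313171 to 98339969 of the minus strand (mm10), showed the widest female genotype difference of the 10 genes. In female WT replicates 1 to 4 it stood at 6.78, 8.11, 5.86 and 7.64 CPM. In female LKO replicates 1 to 4 it stood at 15.6, 11.8, 13.4 and 14.8 CPM. Every female LKO library was above every female WT library, and the mean went from 7.10 ± 0.989 to 13.9 ± 1.64 CPM (SD, n = 4 each). This is a log2 difference of 0.98 with a standard error (SE) of 0.13, or 1.97-fold.

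In males the same gene overlapped between genotypes. Male WT replicates 1 to 4 had 5.83, 7.93, 9.92 and 10.3 CPM of Phgdh. Male LKO replicates 1 to 4 had 10.3, 9.33, 12.5 and 11.1 CPM. Male WT replicates 3 and 4 reached the level of the lower LKO animals, and replicates 1 and 2 lay below all LKO animals. The log2 difference was 0.35 (SE 0.17, adjusted p = 0.965, edgeR quasi-likelihood test), with means of 8.50 ± 2.06 and 10.8 ± 1.31 CPM (SD, n = 4 each). Leaving out 1 library moved it from 0.20, without male WT replicate 1, to 0.46, without male WT replicate 4.

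**Figure D2:**
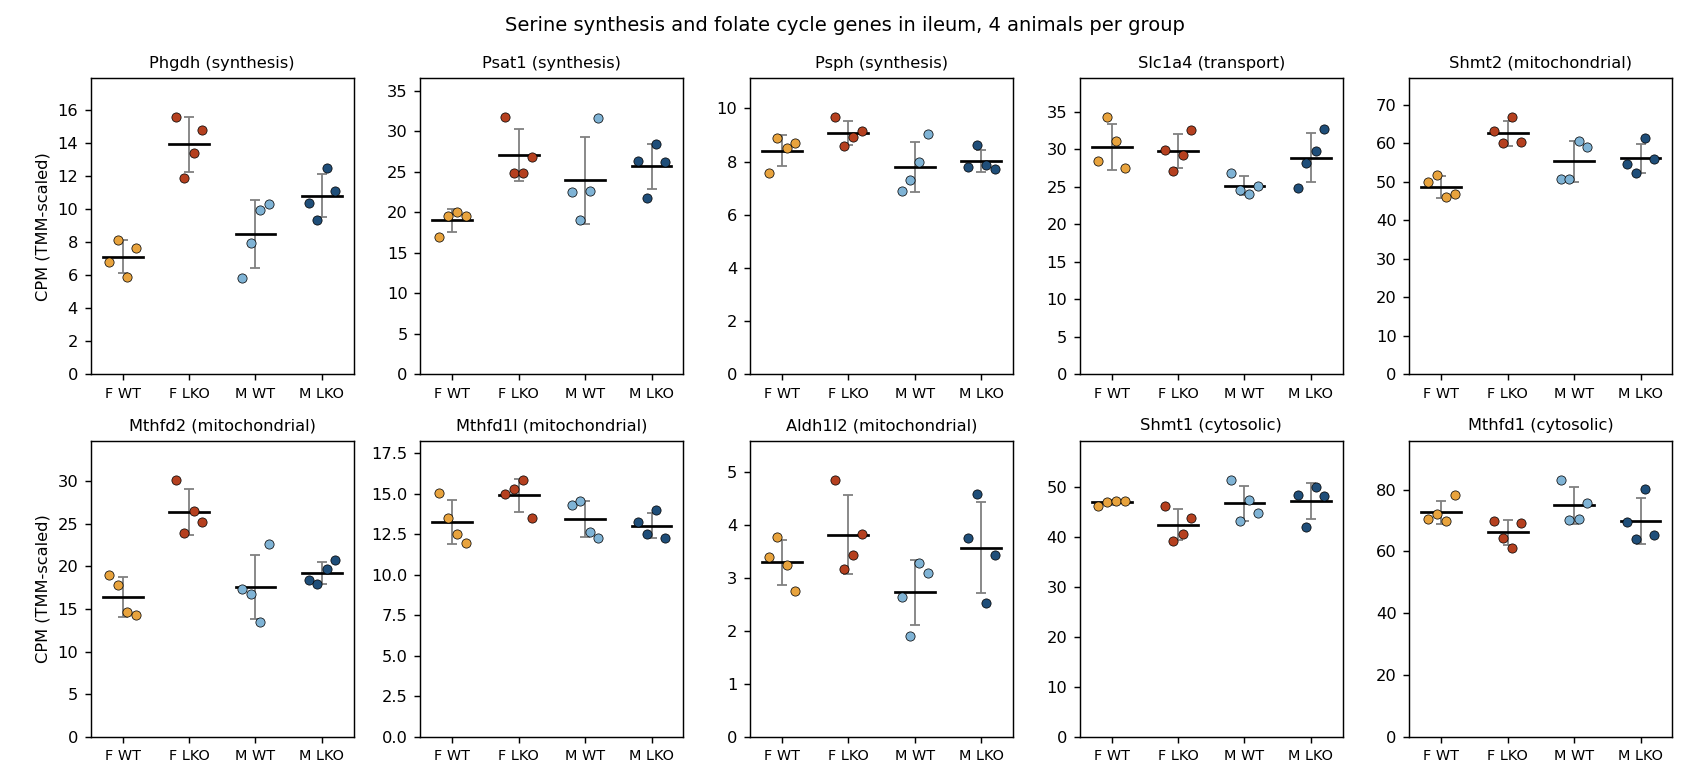
CPM of the 10 genes by group, female (F) and male (M), 1 point per animal in replicate order, with the mean as a line and the SD as bars, on axes from 0. Phgdh, Psat1, Shmt2 and Mthfd2 have female LKO points above all female WT points, and no gene is without overlap in males.

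Psat1, the aminotransferase that follows, lies on chromosome 19 at 15905123 to 15925059. It had 16.9, 19.6, 20.1 and 19.5 CPM in female WT replicates 1 to 4. It had 31.8, 24.9, 24.9 and 26.9 CPM in female LKO replicates 1 to 4. The female groups did not overlap, with a log2 difference of 0.52 (SE 0.097). Male WT animals had 22.5, 19.0, 22.6 and 31.7 CPM and male LKO animals 26.3, 21.8, 28.4 and 26.3 CPM. The highest male value belonged to WT replicate 4, and the male log2 difference was 0.10 (SE 0.14). Without that library it was 0.27, and without male WT replicate 2 it was 0.0094.

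Psph, the phosphatase of the last step, on chromosome 5 at 129765558 to 129787253, did not share the female pattern. Its 16 libraries spanned 6.89 to 9.68 CPM, with log2 differences of 0.12 (SE 0.10) in females and 0.04 (SE 0.13) in males and overlapping groups in both. The log2 ratio of Psph to Phgdh per kilobase was therefore 0.53 ± 0.19 in female WT and -0.32 ± 0.11 in female LKO (SD, n = 4 each). In males it was 0.19 ± 0.24 and -0.14 ± 0.23.

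The mitochondrial arm held the other pair of genes without overlap in females. Shmt2, on chromosome 10 at 127517123 to 127522444, had 49.9, 51.8, 45.9 and 46.8 CPM in female WT replicates 1 to 4 and 63.2, 59.9, 66.8 and 60.2 CPM in female LKO replicates 1 to 4. All LKO females were above all WT females, with a log2 difference of 0.37 (SE 0.063). In males the WT animals had 50.6, 50.8, 60.5 and 59.0 CPM and the LKO animals 54.6, 52.3, 61.3 and 55.8 CPM. The male groups were interleaved, with a log2 difference of 0.02 (SE 0.08).

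Mthfd2, the mitochondrial dehydrogenase on chromosome 6 at 83305704 to 83317604, had 19.0, 17.8, 14.7 and 14.2 CPM in female WT replicates 1 to 4. Female LKO replicates 1 to 4 had 30.2, 23.9, 26.4 and 25.2 CPM. The groups did not overlap, and the log2 difference of 0.70 (SE 0.11) was the widest after that of Phgdh. Male WT animals had 17.4, 16.8, 13.5 and 22.6 CPM and male LKO animals 18.4, 18.0, 19.7 and 20.7 CPM. Male WT replicate 4 was again the highest male, and the log2 difference was 0.13 (SE 0.13), or 0.28 without that library.

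Mthfd1l and Aldh1l2, the other mitochondrial enzymes, overlapped between genotypes in both sexes. Mthfd1l ranged from 12.0 to 15.1 CPM in female WT and from 13.5 to 15.9 CPM in female LKO, a log2 difference of 0.18 (SE 0.099), and its male difference was -0.04 (SE 0.10). Aldh1l2, with 30 to 77 counts in the male libraries, differed by 0.24 (SE 0.18) in females and 0.38 (SE 0.22) in males. The counts behind Aldh1l2 were the fewest of the 10 genes, and its standard errors the widest.

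The cytosolic enzymes went the other way in females, within overlapping groups. Shmt1 had 46.1, 47.0, 47.1 and 47.3 CPM in female WT and 46.2, 39.2, 40.6 and 43.8 CPM in female LKO, a log2 difference of -0.13 (SE 0.066). Mthfd1, on chromosome 12, had 70.4, 72.0, 69.8 and 78.2 CPM in female WT and 69.9, 64.4, 61.2 and 69.1 CPM in female LKO, a log2 difference of -0.13 (SE 0.064). In each gene only LKO replicate 1 reached the lowest WT animals. The male differences were 0.02 (SE 0.078) for Shmt1 and -0.10 (SE 0.082) for Mthfd1.

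Of 3 pairs of a mitochondrial and a cytosolic enzyme, the level ratio of Shmt2 to Shmt1 was the one without overlap between female genotypes, in the libraries that chose the list. On the log2 scale per kilobase it was -0.11 ± 0.09 in female WT and 0.40 ± 0.13 in female LKO (SD, n = 4 each), with ranges of -0.20 to -0.02 and 0.29 to 0.56. In males it was 0.08 ± 0.19 in WT and 0.09 ± 0.07 in LKO. The ratio of female LKO animals lay above that of every other animal, the highest male WT value being 0.24. The log2 ratio of Mthfd1l to Mthfd1 ranged from -2.87 to -2.39 in female WT and from -2.52 to -2.11 in female LKO, and that of Aldh1l2 to Aldh1l1 from -6.99 to -6.55 and from -6.63 to -5.90, so both overlapped.

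Slc1a4, the serine carrier on chromosome 11 at 20302180 to 20332713, showed no female genotype difference beyond its error, at -0.02 (SE 0.085). In males WT replicates 1 to 4 had 26.9, 24.6, 24.0 and 25.1 CPM and LKO replicates 1 to 4 had 24.8, 28.2, 29.8 and 32.7 CPM. LKO replicate 1 lay within the WT range and the other LKO animals above it, with a log2 difference of 0.20 (SE 0.091, adjusted p = 0.917, edgeR quasi-likelihood test).

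**Figure D3:**
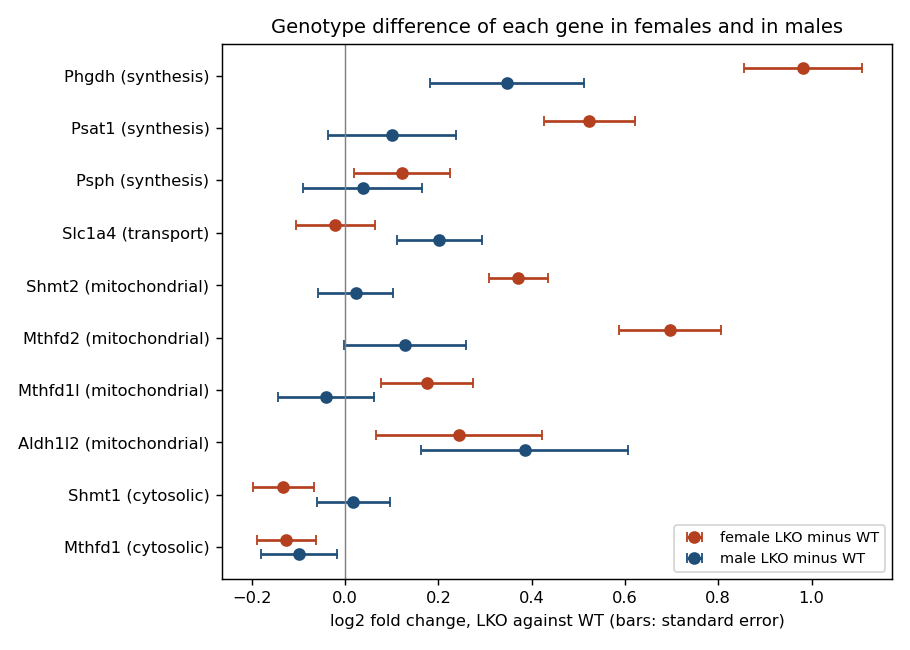
Log2 fold change of LKO against WT for each gene in females and in males, with standard errors as bars. Phgdh, Mthfd2, Psat1 and Shmt2 lie at 0.98, 0.70, 0.52 and 0.37 in females and at 0.35, 0.13, 0.10 and 0.02 in males.

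Counted over the list, all 10 members passed the filter on low counts in every comparison. In males 0 of 10 passed an adjusted p of 0.05 by edgeR, where 0.0527% of the 15169 genes tested did, and 0 of 10 by DESeq2, which called 0.336% of 17540 genes. By edgeR Slc1a4 alone had an unadjusted p below 0.05, as 5.29% of all genes did. By DESeq2 it was Phgdh alone, at an unadjusted p of 0.0485, with Slc1a4 at 0.0533, and 794 genes in all were below 0.05. No member was without overlap between the male genotypes, against 2.87% of all genes. The male differences were above 0 for 8 of the 10 members, with a median of 0.07 where the median of all genes was -0.0020. That count rested on the fit. With the title number as covariate 4 of the 10 were above 0, with a median of -0.02. Psat1, Psph, Shmt2, Mthfd2 and Slc1a4 turned negative and Mthfd1l positive. In males every WT title number was below every LKO title number, so this covariate and genotype cannot be fully told apart. With 1 library left out 6 to 8 were above 0.

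In females, where the choice was made, 1 of 10 members was past the threshold, Phgdh, where 0.0392% of the 15298 genes tested were, and DESeq2 placed 4 there, where it placed 1.22% of 12820 genes. LKO lay above WT without overlap for 4 of 10, against 2.63% of all genes in that direction. The female differences were above 0 for 7 of the 10, with a median of 0.21 where that of all genes was 0.0070. Nothing is read from these counts, since the same contrast chose the list. Phgdh lay just inside the edgeR threshold and Mthfd2 just outside it, and neither position is a test. Phgdh stayed inside without female WT replicate 2 or without female LKO replicate 2 and was outside when any other single female library was left out.

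Over both sexes, with sex as a covariate, the log2 differences were 0.66 (SE 0.13) for Phgdh, 0.41 (SE 0.11) for Mthfd2, 0.31 (SE 0.10) for Psat1 and 0.19 (SE 0.063) for Shmt2. Here 1 of 10 members was past the threshold, against 0.269% of 15598 genes, and this fit holds the libraries that chose the list. Phgdh was that member, and its position is no test. It was outside the edgeR threshold with the replicate block, with the title number as covariate and without the follicle-rich libraries. It was also outside when any single female library, male WT replicate 1 or 2, or male LKO replicate 3 or 4 was left out, with log2 differences of 0.60 to 0.69.

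The genotype differences of the sexes were compared by the interaction term, which also holds those libraries. Male minus female, it was -0.64 (SE 0.22) for Phgdh, -0.58 (SE 0.18) for Mthfd2, -0.43 (SE 0.18) for Psat1 and -0.35 (SE 0.10) for Shmt2. At an adjusted p of 0.05 edgeR called 0 of the 10 members and 0% of the 15598 genes, the smallest adjusted p being 0.845, and DESeq2 called 0. Unadjusted, 4 of the 10 members and 5.64% of all genes were below 0.05. A difference between the sexes was therefore not shown, and a female value far from 0 beside a male value near 0 is not such a difference.

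Levels by sex within a genotype followed from this arrangement and share the same libraries. In WT, males minus females, the log2 difference was 0.26 (SE 0.17) for Phgdh, 0.34 (SE 0.13) for Psat1 and 0.18 (SE 0.078) for Shmt2. In LKO it was -0.38 (SE 0.12) for Phgdh, -0.09 (SE 0.10) for Psat1 and -0.16 (SE 0.066) for Shmt2. Male levels of these genes were thus between those of female WT and female LKO on average, whichever the male genotype. Mthfd2 was lower in every LKO male than in every LKO female, at -0.47 (SE 0.091), 1 of 10 members where 6.43% of all genes lay so. Slc1a4 was lower in every WT male than in every WT female, at -0.27 (SE 0.086), 1 of 10 members where 4.14% of all genes lay so.

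The number in the sample titles, whose meaning was not given, placed some animals side by side. Along 1 run of 6 consecutive numbers, Phgdh stood at 10.3 CPM in male WT replicate 4, 10.3 in male LKO replicate 1, 11.8, 13.4 and 14.8 in female LKO replicates 2, 3 and 4, and 7.64 in female WT replicate 4. Along another run of 3 it stood at 6.78 and 8.11 in female WT replicates 1 and 2 and at 15.6 in female LKO replicate 1. Within both runs LKO females were above WT females, which was fixed in advance, since every female LKO library was above every female WT library. The neighbouring males were a single pair, and male WT replicate 4 was the highest WT male. Whether the order of the numbers bears on Phgdh was not tested by these runs. With the title number as a covariate the female difference of Phgdh was 1.03 and the male difference 0.20. In males every WT number was below every LKO number, so number and genotype cannot be fully told apart there.

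Follicle RNA also varied among the females. In bulk tissue fewer cells of a type and less RNA per cell cannot be told apart. The summed follicle markers ranged from 54.5 to 123 CPM in female WT and from 54.8 to 599 CPM in female LKO, and 13 of the 16 markers were tested there, all with differences above 0, a median of 1.98 and 0 past the threshold. Phgdh was highest in female LKO replicates 1 and 4, whose markers summed to 57.5 and 54.8 CPM. Without the follicle-rich female libraries, WT replicate 3 and LKO replicates 2 and 3, the LKO group was replicates 1 and 4 alone. This alternative was chosen after seeing the data. Its female log2 difference was 1.02 for Phgdh, 0.72 for Mthfd2, 0.66 for Psat1 and 0.33 for Shmt2. Within groups, the correlation of Phgdh with the log2 sum was -0.32 over the 16 libraries.

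**Figure D4:**
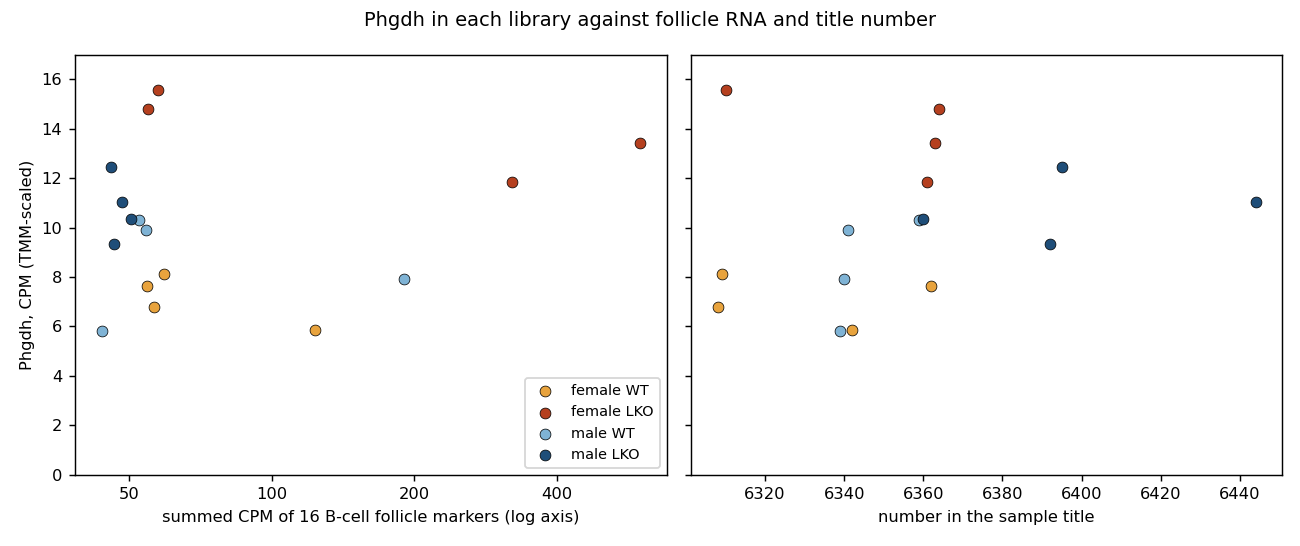
Phgdh in CPM for each of the 16 libraries against the summed CPM of 16 B-cell follicle markers on a log axis (left) and against the number in the sample title (right). Female LKO points are the highest at both low and high follicle sums, at 14.8 and 15.6 CPM with sums near 55 to 58 CPM.

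Other cell types were followed in the same way. Crypt proliferation markers, 20 genes, summed to 1225 to 1370 CPM in female WT and 1204 to 1370 CPM in female LKO, with 0 past the threshold in either sex, and to 1274 to 1626 and 1280 to 1533 CPM in male WT and LKO. Their sum followed Psat1 within groups more closely than it followed Phgdh, with correlations of 0.79 and 0.52 over 16 libraries that share the same depth scaling. Paneth cell markers, 12 genes, were higher in male LKO at 33345 to 42240 CPM than in male WT at 23003 to 29106 CPM, and Lyz1, Mmp7 and Itln1 passed the threshold in males (log2 differences 0.64, 0.47 and 0.66, adjusted p = 0.0089, 0.0442 and 0.00061, edgeR). With the title number as covariate Lyz1 and Mmp7 no longer passed, at adjusted p = 0.311 and 0.229 (edgeR), with log2 differences of 0.67 and 0.62. That number was lower in every male WT than in every male LKO animal, so it cannot be fully told apart from genotype there. Lyz1 also did not pass without male WT replicate 1. Mmp7 passed only without male WT replicate 4 or male LKO replicate 4 among the fits with 1 library left out. It also did not pass in the non-robust edgeR fit of all male libraries, at adjusted p = 0.0901. In females the sums overlapped, at 27060 to 37155 and 33141 to 38360 CPM. Within groups Phgdh and the Paneth sum had a correlation of 0.48, and the part of these cells in the Phgdh level was not tested.

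Within groups, the members did not move as 1 block. After subtraction of each group mean from log2 CPM, Phgdh went with Shmt2 at a Pearson correlation of 0.75, with Psph at 0.63 and with Psat1 at 0.54, but with Mthfd2 at only 0.26. Shmt1 and Mthfd1, the cytosolic pair, went together at 0.72, and the lowest value was -0.67, between Psph and Mthfd1l. These describe 16 libraries and carry no test. Without the subtraction, Shmt2 at 0.89 was the gene most like Phgdh of 14423 genes with a mean of at least 1 CPM, followed by Asns and Cars, cysteinyl-tRNA synthetase and named after its value was seen, both at 0.87, and this version holds the group difference that chose Phgdh. With the subtraction, the 8 genes most like Phgdh began with Chaf1a at 0.89, Gm21992 and Pick1 at 0.86, and Rbm4 and Rbm14 at 0.85. Zfp668 at 0.84, Bricd5 at 0.83 and H2afy at 0.82 followed. Shmt2 came 28th in that order.

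Neighbouring pathways were read from lists chosen with earlier results of these data known. Of 29 tested genes for ATF4 and its amino acid response targets, 23 were higher in female LKO, with a median log2 difference of 0.19. Of the 29, 9 were higher without overlap, against 2.63% of all genes. By edgeR 0 were past the threshold, and 10 were higher at an unadjusted p below 0.05, where 11.7% of all genes were in either direction. DESeq2 called 7, all higher, where it called 1.22% of all genes in either direction. Atf5 and Eif4ebp1, a transcription factor and a translation inhibitor that ATF4 is known to induce, had the widest differences without overlap, at 0.58 (SE 0.12) and 0.57 (SE 0.12). Asns ranged from 44.2 to 54.9 CPM in female WT and from 61.9 to 80.4 CPM in female LKO, and passed the threshold over both sexes at 0.40 (SE 0.078, adjusted p = 0.0344, edgeR). That call was lost with the title number as covariate (adjusted p = 0.17), without the follicle-rich libraries (adjusted p = 0.249) and without any single female library except WT replicate 2, or male WT replicate 1 or 2, or male LKO replicate 3 or 4, with log2 differences of 0.35 to 0.45. The Atf4 transcript itself, named after its value was seen, differed by -0.0029 in females and 0.05 in males. Within groups the log2 sum of this list had correlations of 0.64 with Phgdh, 0.62 with Psat1, 0.57 with Shmt2 and 0.44 with Mthfd2. With Mthfd1 it was 0.55 and with Mthfd1l -0.066. For Phgdh this was the highest of the 19 lists, over 16 libraries that share the same depth scaling, and it carries no test.

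In males the same list had 21 of 29 genes above 0 with a median of 0.05, and 0 past the threshold by edgeR. At an unadjusted p below 0.05, 4 were higher, where 5.29% of all genes lay in either direction. DESeq2 called 1, Chac1, where it called 0.336% of all genes. Chac1, a glutathione-degrading enzyme, had the widest male difference of the list, at 1.07 (SE 0.21, adjusted p = 0.0848, edgeR), from 2.42 ± 0.745 to 5.10 ± 0.508 CPM (SD, n = 4 each). Nupr1, a stress-induced chromatin protein, was the other gene of the list without overlap in males, at 0.39 (SE 0.0997). Of all genes 2.87% were without overlap in males. In female WT, Chac1 spanned 2.09 to 9.48 CPM and overlapped with LKO.

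Substrate supply and use were mixed. All 8 genes of lower glycolysis around 3-phosphoglycerate were above 0 in females, and 0 were past the threshold by edgeR. Of the 8, 4 were higher without overlap, against 2.63% of all genes. Eno1, enolase, was called by DESeq2 and differed by 0.25 (SE 0.064) in edgeR without passing its threshold. Gapdh differed by 0.55 (SE 0.18) at only 3.59 CPM, and its count is uncertain, since reads with several positions were dropped and the gene has many pseudogene copies. In males 6 of the 8 were below 0. Slc6a9, the glycine carrier GlyT1, passed the threshold over both sexes at 0.35 (SE 0.068, adjusted p = 0.0321, edgeR), from 21.8 ± 1.59 to 28.9 ± 0.451 CPM in females and from 19.5 ± 2.59 to 23.7 ± 2.84 CPM in males (SD, n = 4 each). It was 1 of 13 tested carriers of serine and glycine to do so. That call was lost with the replicate block (adjusted p = 0.066), the title number (adjusted p = 0.182), without the follicle-rich libraries (adjusted p = 0.153) and without any single female library except WT replicate 2, or male WT replicate 1, or male LKO replicate 2 or 4, with log2 differences of 0.32 to 0.38. In females DESeq2 called Slc6a9, the 1 carrier of the list it called, where it called 1.22% of 12820 genes. Slc1a5, the glutamine and serine carrier close to Slc1a4, was lower in every LKO male than in every WT male, at -0.09 (SE 0.057). It did not pass the threshold (adjusted p = 0.999, edgeR). It was the 1 of 13 tested carriers without overlap in males, against 2.87% of all genes. Sars and Sars2, the seryl-tRNA synthetases of cytosol and mitochondria, were higher without overlap in female LKO, at 0.22 (SE 0.058) and 0.20 (SE 0.091). They were among 12 tested genes of serine use with a median of 0.00054. Of the 12, 3 were higher without overlap, against 2.63% of all genes, and 0 were past the edgeR threshold. Of the 12 DESeq2 called 1, Serinc2, higher in female LKO and named after its value was seen, where it called 1.22% of all genes.

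Folate enzymes outside the 10 genes did not share the pattern. Of 11 tested, 6 were above 0 and 0 past the threshold in females by edgeR, with a median of 0.05, and DESeq2 called Aldh1l1. Aldh1l1, the cytosolic counterpart of Aldh1l2, was lower without overlap in female LKO, with means of 190.1 ± 12.8 and 160.1 ± 6.69 CPM (SD, n = 4 each) and a difference of -0.24 on the log2 scale (SE 0.065). Slc19a1, the reduced folate carrier, was higher in female LKO at 0.26 (SE 0.085), and Slc25a32, the mitochondrial folate carrier, higher in male LKO at 0.28 (SE 0.13), both without overlap and neither past the threshold. Of 11 tested genes of the methionine cycle and transsulfuration 9 were below 0 in females, with a median of -0.13, among them Cth, cystathionine gamma-lyase, at -0.20 (SE 0.068). Of 5 tested genes of glycine cleavage and synthesis 4 were below 0 in females and 4 in males. Of 13 genes of purine synthesis 10 were above 0 in females with a median of 0.03 and 8 in males with a median of 0.01. None of these lists had a gene past the edgeR threshold in either sex.

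**Figure D5:**
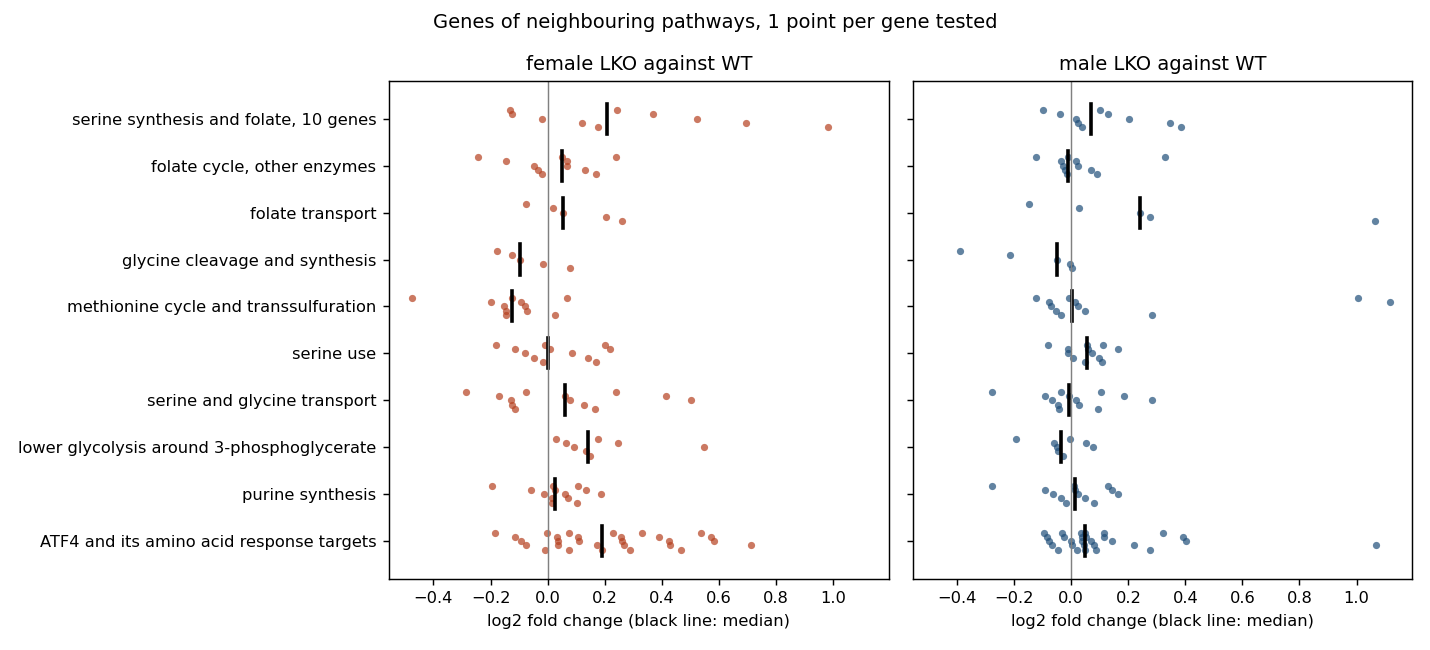
Log2 fold change of LKO against WT, 1 point per gene tested, for the 10 genes and 9 lists of neighbouring pathways in females (left) and males (right), with the median as a black line. The medians of the 10 genes and of the ATF4 list are 0.21 and 0.19 in females and 0.07 and 0.05 in males.

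Some of the counts share sequence with other genes. The Shmt2 interval overlaps the end of Ndufa4l2 on the opposite strand, which stood at 0.877 to 2.18 CPM against 45.9 to 66.8 CPM for Shmt2. Mthfd1, Mthfd1l and Aldh1l2 overlap annotated noncoding RNAs or a pseudogene, and Phgdh has a named pseudogene, Phgdh-ps1, on another chromosome. The strand option of the counting was not given in the sources used here, so whether reads of these overlapping genes were separated was not tested.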

How the data were processed

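Ileum RNA of 16 mice was sequenced as 100-base single-end reads from stranded polyA libraries. The deposited values are raw counts per gene. The authors aligned reads to mm10 with STAR 2.5.2, kept reads with 1 position and at most 4 mismatches, and counted exons with HOMER 4.10 without adjustment. The annotation version and strand option are not given in the sources used here.

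Genes with too few counts were removed by edgeR's filterByExpr for each comparison. Counts were scaled by TMM and tested with edgeR 4.0.16 (robust quasi-likelihood F-test, R 4.3.3), with Benjamini-Hochberg adjustment over all genes tested and a threshold of 0.05. The SE is the log2 difference divided by the square root of F. Log2 CPM used a prior count of 2. DESeq2 1.42.0, other scalings, filters, a replicate block, the title number and leaving out libraries were alternatives. The edgeR step was tested on simulated data.

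The members and lists were chosen with earlier results of these data known. Neighbouring genes were named by a rule on direction without overlap and size of difference, with a mean of at least 1 CPM. Exceptions are stated. Each library is labelled as a separate sample with its own number, so p-values measure the spread between these samples. Total counts were 15.7 to 20.5 M, and 60.3 M in female LKO replicate 1, whose values are the most precise. Of the 24940 genes 4426 had 0 counts in every library.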

Additional observations from a re-analysis of the deposited data

Results flagged for a closer look

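Psph, the phosphatase of serine synthesis, stood at 8.62 CPM in male LKO replicate 2 and at 7.73 to 7.87 CPM in the other male LKO animals. The gap made up 0.845 of the group's range, above Dixon's 95% critical value for 4 samples. It was the only 1 of 40 sets of a gene in a group to stand out so, and chance gives about 1 in 20.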

How the results depend on the processing

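The female log2 difference of Phgdh lay between 0.90 and 1.05 when 1 library was left out. Of the log2 differences of single members under the alternatives, 173 in females and 156 in males kept their direction and side of the threshold. Staying outside the threshold counts as keeping the side. In females 4 changed direction, 7 moved inside the threshold and 6 moved outside it. In males 14 changed direction, and 0 of the others crossed the threshold. The cause of the changes below was not tested.

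Genes past the threshold in males, 8, became 59 with DESeq2, 25 with no filter, 16 with the replicate block, 3 with the title number as covariate and 5 to 29 with 1 library left out. In females, 6 became 156 with DESeq2, 15 with no filter, 10 with the newer quasi-likelihood method, 15 with the replicate block, 3 with the deepest library thinned, 2 without the follicle-rich libraries and 0 to 4 with 1 library left out. Over both sexes, 42 became 223 with DESeq2, 24 with the block, 2 with the title number, 5 without the follicle-rich libraries and 5 to 102 with 1 library left out. For the interaction, 0 became 0 to 1 with 1 library left out. Members past it in females, 1, became 4 with DESeq2, 2 each with no filter, the newer method, the replicate block and the title number, and 0 to 1 with 1 library left out. Over both sexes, 1 became 2 with DESeq2, 0 each with the block, the title number and without the follicle-rich libraries, and 0 to 3 with 1 library left out. By Spearman's correlation 3 of the 8 genes most like Phgdh were shared.

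With the title number as covariate male differences turned to -0.025 for Psat1, -0.0056 for Psph, -0.027 for Shmt2, 0.059 for Mthfd1l, -0.077 for Mthfd2 and -0.029 for Slc1a4. In males this covariate cannot be fully told apart from genotype. The female difference of Slc1a4 turned to 0.0044 with it and to 0.059 without the follicle-rich libraries. Leaving out 1 library gave male ranges of -0.021 to 0.12 for Psph, -0.016 to 0.067 for Shmt1 and -0.023 to 0.067 for Shmt2, and -0.068 to 0.039 for Slc1a4 in females. Between the sexes it gave -0.050 to 0.21 for Mthfd2 in WT, -0.14 to 0.0043 for Psat1 in LKO and -0.12 to 0.021 for Slc1a4 in LKO.

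The deviations of same-numbered samples had correlations of -0.167 to 0.081 in males and -0.079 to 0.317 in females. The closest LKO sample had the same number for male WT replicate 3 and female WT replicates 1 and 3, and another number for the rest. With this mixed result the numbers were not taken to pair animals in the main fit, and the replicate block was an alternative. Depth limits Aldh1l2 most, with as few as 30 counts.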
